A study of Homo sapiens with 9 samples.

Results

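The p53 target genes described here are TNFRSF10B, XPC, CDKN1A, MDM2, GADD45A, BAX, DDB2, SESN1, FAS and BBC3. They were taken by gene symbol from the table that pairs the array's probe sets with genes. Of these 10 genes 9 had a probe set, 1 each, among 7713 genes in all, and BBC3 was not analysed here. The RNA came from the human neuroblastoma line LAN-5, an established cell line grown in DMEM, and was read on 9 one-colour Affymetrix arrays. Untreated cells gave 3 arrays, cells given S100B protein at 0.5 nM gave 3, and cells given it at 5 µM gave 3. S100B is a calcium-binding protein that astrocytes release. The series design calls the arrays of a group biological replicates, all from this 1 line, and the sources used here do not give the duration of exposure.

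The transcription factor p53 is stabilised by DNA damage and other stress and then switches on genes that halt the cell cycle, repair DNA or start cell death. MDM2, one of its own targets, marks p53 for degradation, so that the response limits itself. CDKN1A encodes p21, which blocks cyclin-dependent kinases, and a blocked kinase lets the DREAM repressor complex shut down many cell cycle genes. In neuroblastoma, p53 is of interest because tumours at diagnosis seldom carry a mutated gene.

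None of the 9 measured genes differed between the groups by the test used. The largest group difference was that of CDKN1A at 0.5 nM, 0.20 log2 above untreated, with arrays that spread more widely than this. TNFRSF10B, a death receptor, was the 1 gene whose treated arrays all lay above the untreated arrays at both doses. Its group means differed from untreated by 0.13 log2 at 0.5 nM and 0.17 at 5 µM. Of the 9 probe sets 5 lay above an intensity filter that left out the dimmest probe sets, those with a mean over all arrays at or below 5.95 log2. The other 4, for FAS, BAX, DDB2 and MDM2, lay below it and were fitted separately without the filter.

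For orientation, the stretch of promoter next to the start of CDKN1A is shown because this was the member whose arrays spread most. It covers chr6:36678594-36678713 on the plus strand of GRCh38.p14, from RefSeq, and ends at the base before the transcription start. Capitals mark GC boxes (GGGCGG or CCGCCC, either strand, overlaps kept), the sites known to bind Sp1, of which the stretch holds 4.
CDKN1A: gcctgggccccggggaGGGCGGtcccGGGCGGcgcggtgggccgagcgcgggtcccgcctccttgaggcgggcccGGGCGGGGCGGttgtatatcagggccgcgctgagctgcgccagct
The p53 half-site consensus, which reads the same on both strands, was searched in windows from 250 bases before to 50 bases after the start. It was found in 0 of the 8 members' windows held (BAX, BBC3, CDKN1A, DDB2, FAS, MDM2, SESN1 and XPC) and in 6.54% of 27305 promoters. A GC box was found in 6 of the 8 windows and in 44.6% of all. As background, the known p53 elements of CDKN1A lie further upstream and those of MDM2, FAS and GADD45A in introns, outside such windows.

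LAN-5 identity was checked on markers of noradrenergic neuroblastoma cells. Of 17 measured, 15 lay above the filter, among them PHOX2A, GATA3, ISL1 and DBH, while TH and SLC18A2 lay below it. Of the markers of other cells, 6 of 10 measured for leukocytes lay above the filter (CD74, HLA-DRA, CD3D, CD79A, LAPTM5 and CORO1A). So did 4 of 10 for epithelium (KRT8, KRT18, KRT5 and ELF3) and 4 of 8 for astrocytes and oligodendrocytes (GLUL, SLC1A3, ALDH1L1 and MBP). PTPRC, EPCAM, GFAP and AQP4 lay below it. The mean of the 6 leukocyte markers was 6.85 to 6.91 log2 on untreated arrays, 6.75 to 6.82 at 0.5 nM and 6.69 to 6.80 at 5 µM. That of the 4 epithelial markers was 6.42 to 6.56, 6.42 to 6.44 and 6.37 to 6.39, and that of the 4 astrocyte and oligodendrocyte markers 7.49 to 7.51, 7.44 to 7.51 and 7.44 to 7.47. Of 13 mesenchymal and Schwann-like markers measured, 6 lay above the filter (VIM, LGALS1, ANXA2, SPARC, SOX10 and COL1A2). Their mean was 8.13 to 8.24 log2 on untreated arrays, 8.11 to 8.19 at 0.5 nM and 8.10 to 8.15 at 5 µM. For 3 of these 6 the 5 µM arrays lay wholly below the untreated arrays, as they did for 9.47% of all probe sets. The same held for 3 of the 6 leukocyte, 1 of the 4 epithelial and 0 of the 4 astrocyte and oligodendrocyte markers. All 6 leukocyte markers had a difference below 0 at 5 µM, with a median of -0.12 log2 against -0.02 for all probe sets. By limma 0 of them passed, and 3 had an unadjusted p under 0.05, all lower, against 5.35% of all probe sets. The part of these markers in the results was not tested. The replicate 1 array at 5 µM stood apart in the 18S ribosomal RNA controls, with a mean of 6.95 log2 over 3 probe sets against 5.79 to 6.16 on the other 8 arrays. The difference between 3' and 5' ACTB controls, which reflects RNA integrity, overlapped between groups. Spike-in signal, averaged over 9 probe sets, was at 8.40, 8.88 and 8.76 log2 on untreated arrays 1 to 3. It was at 8.99, 8.89 and 9.04 at 0.5 nM and at 8.98, 8.59 and 9.07 at 5 µM. The 0.5 nM arrays thus all lay above the untreated arrays here, narrowly, while the 5 µM arrays overlapped both groups. How the spike-in signal bears on the members' differences was not tested. Arrays correlated at 0.993 to 0.997 within groups and at 0.994 to 0.997 between groups, across probe sets.

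**Figure D1:**
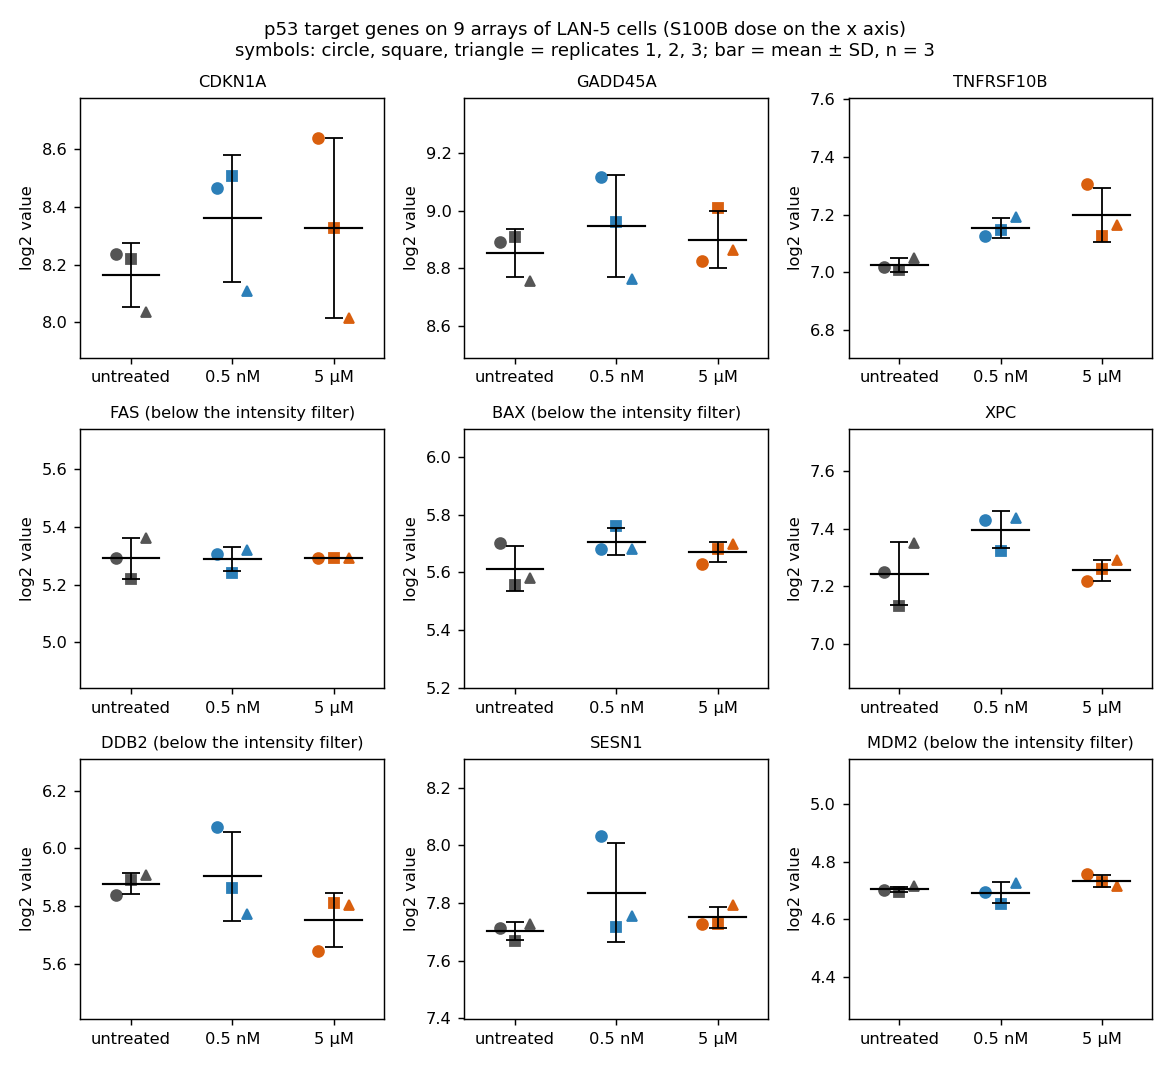
Log2 value (y axis, 0.9 log2 in every panel) of 9 p53 target genes on each array, by S100B dose (x axis), with the mean ± SD of 3 arrays. For TNFRSF10B the 3 untreated arrays sit at 7.01 to 7.05, below all 6 treated arrays at 7.13 to 7.30, while for the other 4 genes above the filter the treated and untreated arrays overlap at both doses.

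The members that arrest the cell cycle were CDKN1A and GADD45A. CDKN1A was at 8.24, 8.22 and 8.04 log2 on untreated arrays 1, 2 and 3. At 0.5 nM it was at 8.46, 8.51 and 8.11, and at 5 µM at 8.64, 8.33 and 8.02. The array numbered 3 was the lowest of each group, and the 3 groups overlapped. The differences from untreated were 0.16 ± 0.15 log2 (SE, n = 3 arrays in each group, 112% of untreated) at 5 µM and 0.20 ± 0.15 (115%) at 0.5 nM. By limma the adjusted p was 0.885 and 0.9999. Its spread within groups, an SD of 0.23 log2, exceeded that of 97.7% of the probe sets tested, whose median was 0.09. Without the replicate 1 array at 5 µM, the one with high 18S signal, the difference at 5 µM was 0.01. Without replicate 3 at that dose it was 0.32, while the difference at 0.5 nM was 0.12 without replicate 2 and 0.32 without replicate 3 of that dose.

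GADD45A binds PCNA and p21 and activates stress kinase signalling. It was at 8.89, 8.91 and 8.76 log2 on untreated arrays 1 to 3, at 9.12, 8.96 and 8.76 at 0.5 nM, and at 8.82, 9.01 and 8.86 at 5 µM. The groups overlapped, and the 0.5 nM arrays covered nearly the whole range of its values. Its differences from untreated were 0.05 ± 0.09 (SE, n = 3 per group) at 5 µM and 0.10 ± 0.09 at 0.5 nM, and limma gave adjusted p of 0.956 and 0.9999. The difference at 0.5 nM was 0.01 without replicate 1 and 0.19 without replicate 3 of that dose, and that at 5 µM was -0.01 without replicate 2 and 0.09 without replicate 1 of that dose.

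The members that act in cell death were TNFRSF10B, FAS and BAX. TNFRSF10B, a receptor for the ligand TRAIL, was at 7.02, 7.01 and 7.05 log2 on untreated arrays. It was at 7.13, 7.15 and 7.19 at 0.5 nM and at 7.30, 7.13 and 7.16 at 5 µM. All 6 treated arrays therefore lay above all 3 untreated arrays, and both dose groups overlapped each other. The lowest arrays of the doses, replicate 1 at 0.5 nM and replicate 2 at 5 µM, carried the same deposited value, 7.12544. The difference at 5 µM was 0.17 ± 0.06 log2 (SE, n = 3 per group), 113% of untreated with a 95% interval of 103% to 123%, at limma's unadjusted p of 0.0133 and adjusted p of 0.582. At 0.5 nM the difference was 0.13 ± 0.06, 109% of untreated, with limma's unadjusted p of 0.0499972 and adjusted p of 0.9999. Both differences use the same 3 untreated arrays, so the second is no independent repeat of the first. The share of all probe sets whose treated arrays lay wholly above the untreated arrays was 2.86% at 5 µM and 1.97% at 0.5 nM. Without the replicate 1 array at 5 µM the difference was 0.12.

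FAS, the receptor for FAS ligand, lay in the dim part of the array, brighter than only 14.3% of probe sets. It was at 5.29, 5.22 and 5.36 log2 on untreated arrays and at 5.30, 5.24 and 5.32 at 0.5 nM. At 5 µM all 3 arrays carried the same deposited value, 5.29, which untreated replicate 1 also carried. Exact repeats of a value between arrays occurred in 57.9% of the 8746 probe sets that are not controls. Among the other members, TNFRSF10B and MDM2 carried their most common value on 2 arrays each, and BAX and SESN1 on 3 each. How such repeats bear on the spread of these 4 was not tested. The SD of 0 for FAS at 5 µM is not a measure of its spread. Its differences from untreated were 0.0016 at 5 µM and -0.0023 at 0.5 nM, the smallest of the members at either dose.

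BAX, which opens the outer mitochondrial membrane, was at 5.70, 5.56 and 5.58 log2 on untreated arrays. It was at 5.68, 5.76 and 5.68 at 0.5 nM and at 5.63, 5.68 and 5.70 at 5 µM, and untreated replicate 1 lay among the treated arrays. In the fit without the filter the differences were 0.09 ± 0.05 log2 (SE, n = 3 per group) at 0.5 nM and 0.06 ± 0.05 at 5 µM, and limma gave adjusted p of 0.979 and 0.830. Without untreated replicate 2 the difference at 5 µM was 0.03, and without untreated replicate 1 it was 0.10.

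**Figure D2:**
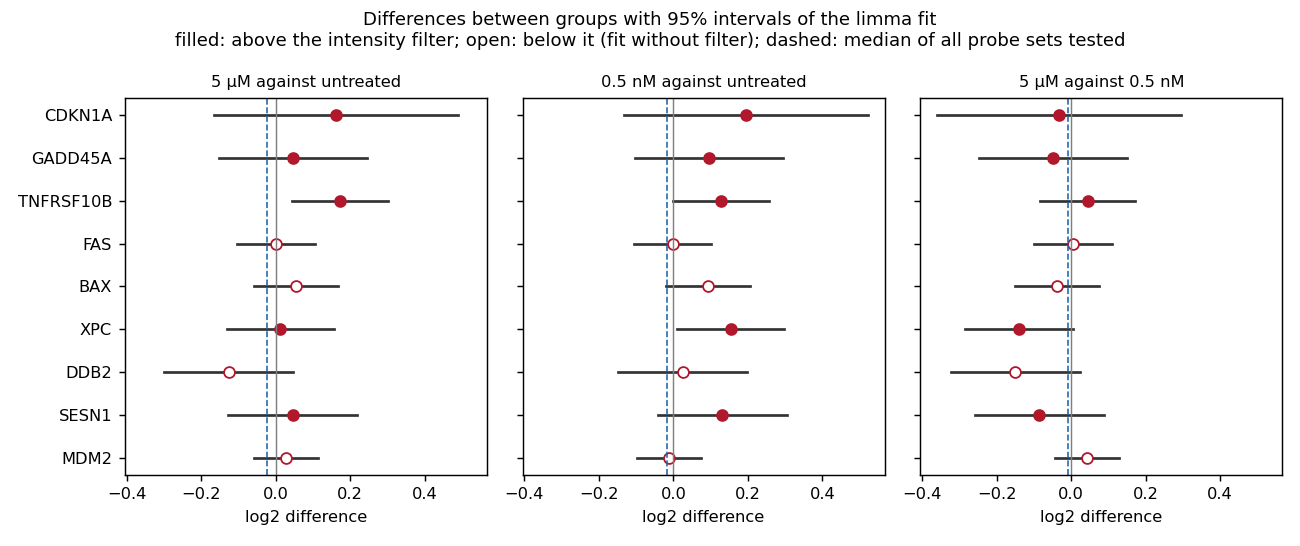
Log2 difference (x axis) of 9 p53 target genes (y axis) in 3 comparisons, with the 95% interval of limma's fit; filled points lay above the intensity filter and open points below it. The interval excludes 0 for TNFRSF10B in both comparisons with untreated cells and for XPC at 0.5 nM, before any adjustment for the 5830 probe sets tested, and none has an adjusted p under 0.05.

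The members that find damaged DNA were XPC and DDB2, the recognition factors of nucleotide excision repair. XPC was at 7.25, 7.13 and 7.35 log2 on untreated arrays, at 7.43, 7.32 and 7.44 at 0.5 nM and at 7.22, 7.26 and 7.29 at 5 µM. The 0.5 nM arrays all lay above the 5 µM arrays, and 1 untreated array lay within the range at 0.5 nM. XPC was 0.15 ± 0.07 log2 higher at 0.5 nM than untreated (SE, n = 3 per group, 111%), where limma gave an unadjusted p of 0.0387 and an adjusted p of 0.9999. At 5 µM it differed from untreated by 0.01 ± 0.07 and from 0.5 nM by -0.14 ± 0.07, and limma gave adjusted p of 0.984 and 0.994. Of all probe sets 4.63% had their 5 µM arrays wholly below the 0.5 nM arrays. Leaving out untreated replicate 2, the array where XPC was lowest, gave 0.10 at 0.5 nM and -0.04 at 5 µM, and leaving out untreated replicate 3 gave 0.21 and 0.07.

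DDB2, which binds ultraviolet photoproducts, was the member with the largest negative difference, -0.15 log2 from 0.5 nM to 5 µM. It was at 5.84, 5.89 and 5.91 log2 on untreated arrays, at 6.07, 5.86 and 5.77 at 0.5 nM and at 5.64, 5.81 and 5.80 at 5 µM. The 5 µM arrays all lay below the untreated arrays, as they did for 9.26% of probe sets without the filter, and those at 0.5 nM spread across both groups. The difference at 5 µM was -0.13 ± 0.08 log2 (SE, n = 3 per group), 91.6% of untreated, and limma gave an adjusted p of 0.731 in the fit without the filter. Without replicate 1 at 5 µM, the array with high 18S signal, it was -0.07. At 0.5 nM the difference was 0.02 ± 0.08, and it was -0.06 without replicate 1 and 0.09 without replicate 3 of that dose. Between the doses, without replicate 1 at 0.5 nM, it was -0.06.

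SESN1, a sestrin that restrains the growth kinase mTORC1, was the remaining effector. It was at 7.71, 7.67 and 7.73 log2 on untreated arrays, at 8.03, 7.72 and 7.75 at 0.5 nM and at 7.73, 7.73 and 7.79 at 5 µM. One array, replicate 1 at 0.5 nM, stood above the other 8, which lay between 7.67 and 7.79. The difference at 0.5 nM was 0.13 ± 0.08 log2 (SE, n = 3 per group), where limma gave an adjusted p of 0.9999, and without that array it was 0.03. At 5 µM the difference was 0.05 ± 0.08, where limma gave an adjusted p of 0.944, and without replicate 3 of that dose it was 0.02.

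MDM2, the feedback inhibitor of p53, was the dimmest member, brighter than only 1.85% of probe sets. It was at 4.70, 4.70 and 4.72 log2 on untreated arrays, at 4.70, 4.65 and 4.73 at 0.5 nM and at 4.76, 4.73 and 4.72 at 5 µM. The whole range over 9 arrays was 0.10 log2, and the groups overlapped. The differences were 0.03 ± 0.04 at 5 µM and -0.01 ± 0.04 at 0.5 nM (SE, n = 3 per group), and limma gave adjusted p of 0.900 and 0.997 in the fit without the filter. Whether a level this near the low end of the array follows the transcript was not tested.

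**Figure D3:**
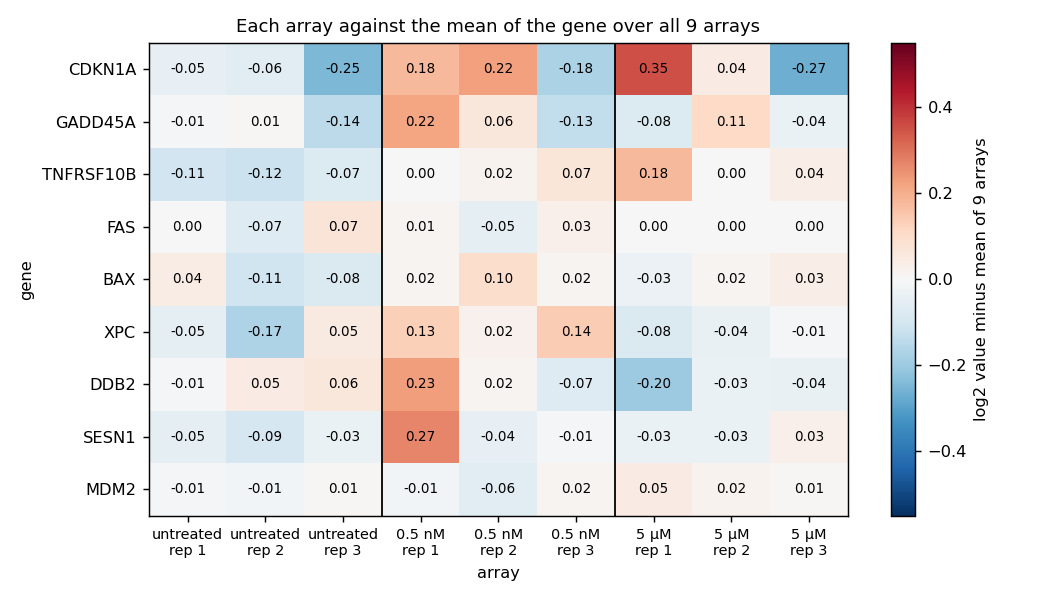
Deviation of each array (x axis) from the gene's mean over 9 arrays, in log2, for 9 p53 target genes (y axis); red is above the mean and blue below. Replicate 1 at 0.5 nM is the highest array for GADD45A, DDB2 and SESN1, and replicate 1 at 5 µM is the highest for CDKN1A, TNFRSF10B and MDM2 and the lowest for DDB2.

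The members did not share 1 pattern over the arrays. Replicate 1 at 0.5 nM was the highest array for 3 of 9 members and replicate 1 at 5 µM for another 3. Untreated replicate 2 was the lowest array for 5 of 9, namely TNFRSF10B, XPC, BAX, SESN1 and FAS. The median deviation of the 9 members from their own means was 0.13 log2 on replicate 1 at 0.5 nM, against 0.02 for all tested probe sets on that array. On the other 8 arrays the members' median deviation lay between -0.07 and 0.02.

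As a group, 0 of the 5 members above the filter passed at 5 µM by limma at an adjusted p under 0.05, against 0.292% of 5830 probe sets, and 1 of 5 had an unadjusted p under 0.05, against 6.84%. At 0.5 nM 0 of 5 passed, as did 0% of probe sets, and 2 of 5, XPC and TNFRSF10B, had an unadjusted p under 0.05, against 3.29%. TNFRSF10B lay at that limit. Between the doses 0 of 5 passed, against 0.257% of probe sets, and 0 of 5 had an unadjusted p under 0.05, against 4.65%. For the 4 members below the filter the fit without it gave 0 calls in each comparison, against 0.183%, 0% and 0.16% of 8746 probe sets.

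All 5 members above the filter had a difference above 0 in both comparisons with untreated cells, which share the untreated arrays. Of all probe sets 38.1% did at 5 µM and 40.9% at 0.5 nM. The members were chosen with earlier results of these data known, so this direction is no independent evidence. The median of the 5 was 0.05 log2 at 5 µM against -0.02 for all probe sets, and 0.13 at 0.5 nM against -0.02. Between the doses the median of the 5 was -0.05 against -0.01. Over the 9 members, the upper ends of the 95% intervals reached at most 140% of untreated at 5 µM and 144% at 0.5 nM, both for CDKN1A, and the lower ends reached 81.3% and 90.2%, both for DDB2. These intervals cover the spread between arrays, and whether the processing shrank differences of dim probe sets was not tested.

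Of 60 other p53 target genes, 47 had a probe set and 31 lay above the filter. None passed by limma in any comparison, and the counts at an unadjusted p under 0.05 were 0 at 5 µM, 1 at 0.5 nM and 1 between the doses, against 6.84%, 3.29% and 4.65% of all probe sets. Their median differences were 0.01 log2 at 5 µM, with 17 of 31 above 0, and 0.00014 at 0.5 nM, with 16 of 31 above 0. The values with the smallest p were those of VCAN, a matrix proteoglycan, at -0.26 ± 0.14 (SE) and CX3CL1, a chemokine, at -0.08 ± 0.05 for 5 µM. For 0.5 nM they were DUSP5, a nuclear phosphatase of ERK, at -0.18 ± 0.06 and the cytokine LIF at -0.10 ± 0.05. Between the doses they were VCAN at -0.33 ± 0.14 and PPM1D, a phosphatase that dampens p53, at 0.20 ± 0.10. Without replicate 1 at 5 µM VCAN was at -0.16 for 5 µM, and without replicate 3 at 0.5 nM VCAN was at -0.20 and PPM1D at 0.09 between the doses.

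Regulators of p53 were measured for 23 of 34 genes, with 17 above the filter and 0 past the threshold by limma in any comparison. Of these 17, 0 had an unadjusted p under 0.05 for 5 µM, 0.5 nM or between the doses, against 6.84%, 3.29% and 4.65% of all probe sets. MDM4, the partner of MDM2, lay below the filter and differed from untreated by -0.02 ± 0.05 at 5 µM and -0.02 ± 0.05 at 0.5 nM (SE, n = 3 per group), where limma gave adjusted p of 0.956 and 0.996. The damage kinase ATR was at 0.22 ± 0.10 and the checkpoint kinase CHEK1 at -0.22 ± 0.13 for 5 µM. CHEK1 was at -0.21 ± 0.13 and USP7, which removes ubiquitin from MDM2 and p53, at 0.11 ± 0.10 for 0.5 nM. Between the doses the coactivator CREBBP was at 0.19 ± 0.10 and ATR at 0.18 ± 0.10. The values of ATR and CREBBP rested on replicate 3 at 5 µM, without which ATR was at 0.09 for 5 µM and 0.05 between the doses and CREBBP at 0.04. CHEK1 was at -0.12 for 5 µM without untreated replicate 1 and at -0.08 for 0.5 nM without replicate 3 of that dose, and USP7 was at 0.02 without untreated replicate 2.

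Cell cycle genes that p21 lowers through DREAM were measured for 42 of 49 genes, with 39 above the filter. None passed by limma in any comparison, and 10, 2 and 6 had an unadjusted p under 0.05 at 5 µM, at 0.5 nM and between the doses. All of these were lower, against 5.35%, 2.49% and 2.92% of all probe sets that were lower at such a p. At 5 µM 36 of the 39 lay below 0 and all 10 of small p lay in that direction (25.6%, against 5.35% of all probe sets), with a median of -0.12 log2 against -0.02. The list overlaps the mitotic genes already known from these data to lie lower, so it is no independent evidence. PLK1, a mitotic kinase, was at 8.66, 8.51 and 8.62 log2 on untreated arrays, at 8.59, 8.65 and 8.55 at 0.5 nM and at 8.29, 8.30 and 8.32 at 5 µM. Its 5 µM arrays lay below all others, and of all probe sets 9.47% had 5 µM arrays wholly below the untreated ones and 4.63% wholly below those at 0.5 nM. The difference was -0.29 ± 0.06 from untreated and -0.29 ± 0.06 from 0.5 nM (SE, n = 3 per group), where limma gave adjusted p of 0.0888 and 0.0911. The cyclin CCNB2 was at -0.24 ± 0.06 at 5 µM and -0.15 ± 0.06 at 0.5 nM, where the kinase subunit CKS2 was at -0.13 ± 0.05, and the ubiquitin enzyme UBE2C was at -0.21 ± 0.07 between the doses.

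The mean of these 39 genes was set beside CDKN1A array by array. At 5 µM it was 8.88, 8.94 and 8.99 log2 on replicates 1, 2 and 3, where CDKN1A was at 8.64, 8.33 and 8.02. On untreated arrays the list mean was 9.08, 9.07 and 9.06, where CDKN1A was at 8.24, 8.22 and 8.04. At 0.5 nM the list mean was 9.09, 9.00 and 8.98, where CDKN1A was at 8.46, 8.51 and 8.11. Within the 5 µM group the array with the highest CDKN1A had the lowest list mean. That array was replicate 1, which stood apart in the ribosomal RNA controls. In the untreated group and at 0.5 nM the array with the lowest CDKN1A had the lowest list mean. Whether CDKN1A and the list mean were related over the arrays was not tested. Without replicate 1 at 5 µM the median of the 39 at 5 µM was -0.09, with 34 of 39 below 0.

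**Figure D4:**
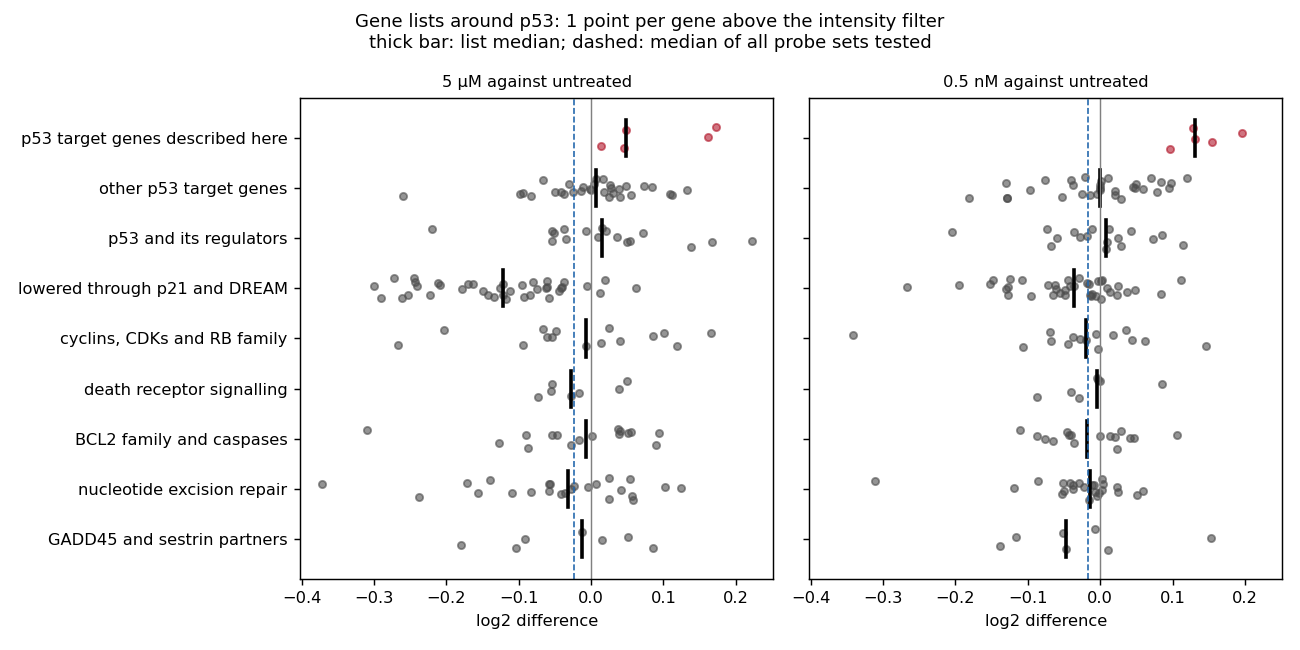
Log2 difference from untreated (x axis) of genes above the filter in 9 lists around p53 (y axis), at 5 µM and 0.5 nM; bars are list medians and the dashed line is the median of all probe sets tested. The p53 targets described here have a median of 0.05 at 5 µM and 0.13 at 0.5 nM, and the genes lowered through p21 and DREAM have medians of -0.12 and -0.04.

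Partners of the members gave 0 calls by limma in every comparison. Cyclins, kinases and retinoblastoma family genes had a median of -0.01 log2 over 15 genes at 5 µM, where RBL2, a DREAM subunit, was at 0.17 ± 0.05 (SE, unadjusted p of 0.00646, limma's adjusted p of 0.463) and CDK2 at -0.20 ± 0.11. For RBL2 the 5 µM arrays, at 7.76, 7.70 and 7.76, lay above all untreated arrays, at 7.61, 7.57 and 7.54, as they did for 2.86% of all probe sets. At 0.5 nM the inhibitors CDKN1B and CDKN1C were at -0.34 ± 0.16 and 0.15 ± 0.07, and between the doses RBL2 was at 0.15 ± 0.05 and E2F1 at -0.05 ± 0.06. Leaving out 1 array brought CDK2 to -0.11 (untreated replicate 2), CDKN1C to 0.07 (untreated replicate 1), E2F1 to -0.02 (replicate 2 at 5 µM) and CDKN1B to -0.52 (replicate 1 at 0.5 nM). This list of 15 had 1, 0 and 1 genes at an unadjusted p under 0.05 for 5 µM, 0.5 nM and between the doses, against 6.84%, 3.29% and 4.65% of all probe sets.

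Death receptor signalling genes, 7 above the filter of 16 measured, had medians of -0.03 log2 at 5 µM and -0.0045 at 0.5 nM. Of these 7, 0 had an unadjusted p under 0.05 for 5 µM, 0.5 nM or between the doses, against 6.84%, 3.29% and 4.65% of all probe sets. The adaptor FADD was at -0.07 ± 0.07 (SE) and the caspase CASP10 at -0.06 ± 0.06 for 5 µM. For 0.5 nM the caspase activator DIABLO was at -0.09 ± 0.06 and the adaptor TRADD at 0.09 ± 0.06. Between the doses DIABLO was at 0.07 ± 0.06 and FAIM2, an inhibitor of FAS, at -0.05 ± 0.06. With 1 array left out FADD came to -0.03 and CASP10 to -0.03, without untreated replicate 1 and without replicate 2 at 5 µM.

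BCL2 family and caspase genes, 16 above the filter, had medians of -0.01 log2 at 5 µM and -0.02 at 0.5 nM, with 1, 0 and 1 genes at an unadjusted p under 0.05 for 5 µM, 0.5 nM and between the doses, against 6.84%, 3.29% and 4.65% of all probe sets. VDAC1, a mitochondrial channel, was at -0.31 ± 0.09 (SE) and the survival factor MCL1 at -0.13 ± 0.07 for 5 µM. For 0.5 nM BAK1, the close relative of BAX, was at -0.11 ± 0.06. Between the doses VDAC1 was at -0.25 ± 0.09 and the pro-death protein BAD at 0.14 ± 0.06. Leaving out 1 array brought MCL1 to -0.08 (replicate 1 at 5 µM), BAK1 to -0.07 (untreated replicate 3) and VDAC1 between the doses to -0.14 (replicate 1 at 0.5 nM).

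Nucleotide excision repair genes, 24 above the filter, had medians of -0.03 log2 at 5 µM and -0.01 at 0.5 nM, with 3, 1 and 1 genes at an unadjusted p under 0.05 in the 3 comparisons, all lower, against 5.35%, 2.49% and 2.92% of all probe sets. CETN2, a subunit of the XPC complex, was at 9.52, 9.35 and 9.30 log2 on untreated arrays, at 9.51, 9.50 and 9.30 at 0.5 nM and at 9.06, 9.23 and 9.16 at 5 µM. Its 5 µM arrays lay below all other arrays, and of all probe sets 9.47% had 5 µM arrays wholly below the untreated and 4.63% wholly below the 0.5 nM arrays. The differences were -0.24 ± 0.08 from untreated and -0.29 ± 0.08 from 0.5 nM (SE, n = 3 per group), where limma gave adjusted p of 0.582 and 0.633. For 0.5 nM RAD23B, another partner of XPC, was at -0.31 ± 0.18 and RPA3, a subunit of the DNA-binding complex RPA, at -0.12 ± 0.05. At 5 µM RAD23B had the lowest difference of this list, -0.37, though it was not among the 2 genes of smallest p. Its 5 µM arrays, at 9.91, 9.93 and 9.53, lay below the untreated arrays, at 10.12, 10.26 and 10.12. The ligase LIG3 was at -0.17 ± 0.06 for 5 µM and -0.12 ± 0.06 between the doses. Without replicate 3 at 0.5 nM the difference of RAD23B at that dose was -0.08, and without replicate 3 at 5 µM LIG3 was at -0.08 between the doses.

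GADD45 and sestrin partners, 7 above the filter of 13 measured, had medians of -0.01 log2 at 5 µM and -0.05 at 0.5 nM. Of these 7, 0 had an unadjusted p under 0.05 for 5 µM, 0.5 nM or between the doses, against 6.84%, 3.29% and 4.65% of all probe sets. PRKAB1, a subunit of the energy sensor AMPK, was at -0.18 ± 0.10 (SE) at 5 µM and -0.14 ± 0.10 at 0.5 nM. NPRL3, a brake on mTORC1, was at -0.09 ± 0.07 at 5 µM and -0.04 ± 0.07 between the doses. The mTORC1 inhibitors TSC2 and TSC1 were at 0.15 ± 0.12 at 0.5 nM and at 0.06 ± 0.06 between the doses. Leaving out 1 array brought PRKAB1 to -0.07 at 5 µM (replicate 3 of that dose) and -0.06 at 0.5 nM (untreated replicate 2), and NPRL3 to -0.05 at 5 µM (replicate 2 of that dose) and 0.03 between the doses (replicate 3 at 0.5 nM). Without replicate 2 at 0.5 nM TSC2 was at 0.08 and TSC1 at 0.01.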

How the data were processed

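Per the submitters' processing notes the arrays were processed with GCRMA, and the authors deposited 1 log2 value per probe set and array. The log2 scale was read from the values, 4.37 to 14.5 with array medians of 6.60 to 6.64; the centring is unknown. The scanner intensities were not used here, and the number of arrays limits the precision. Of 8793 probe sets, 47 controls and the 2916 of lowest mean, 1 in 3 of the rest, were left out, leaving 5830. Of the 8746 that are not controls, 7840 had 1 gene symbol, 388 several and 518 none in the platform annotation. Symbols were updated through RefSeq (GRCh38.p14; 7838 matched).

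One model of the 3 groups was fitted to all 9 arrays (limma 3.58.1, R 4.3.3), with Benjamini-Hochberg adjustment over all probe sets and a threshold of 0.05. It was also run on simulated data, with noise independent between arrays and changes larger than any member difference. That run therefore does not cover arrays that correlate or changes as small as those of the members. For 3 arrays against 3 the smallest p of an exact permutation test is 0.1. Alternatives covered the filter, normalization, replicate number, groups fitted, variance prior and each array left out. Members and lists were chosen with earlier results of these data known. Every member is named, with up to 4 called genes of each list or otherwise the 2 of smallest p; genes with several probe sets are represented by the brightest. Probe sets of CDKN1A, MDM2, BAX, SESN1 and FAS are of a type that can match several transcripts.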

Additional observations from a re-analysis of the deposited data

How the results depend on the processing

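Of the 9 member probe sets in 3 comparisons, 0 passed under any of the 408 alternative values, with a smallest limma adjusted p of 0.433 (TNFRSF10B at 5 µM after quantile normalization). A sign change occurred in 11 of the 27 member results, 19 values in all, each for a difference that had not passed. The 50 other named results also gave 0 calls in 788 alternative values, with 8 sign changes and a smallest adjusted p of 0.0676, for PLK1 between the doses. Leaving out 1 array moved 23 of the 27 member results and 32 of the 50 others by over 1.5 times at least once. The number of probe sets called at 5 µM against untreated was 17, and 7 when the third group was left out of the fit; it ran from 4 to 17 when 1 array was left out. Between the doses it was 15, 4 with the third group left out, and 3 to 14 with 1 array left out. The median of the 5 members above the filter ran from 0.05 to 0.08 at 5 µM, from 0.12 to 0.17 at 0.5 nM and from -0.13 to 0.02 between the doses when 1 array was left out, turning positive in the last without replicate 1 at 0.5 nM. The median of the genes lowered through p21 and DREAM ran from -0.13 to -0.09 at 5 µM, an alternative chosen after seeing the data. With the replicate number as a block 15, 0 and 15 probe sets were called and 0 members in each comparison, and CDKN1A had an adjusted p of 0.687 at 5 µM. Deviations of arrays with the same number correlated at -0.00035 to 0.33, with a mean of 0.15. Those of arrays with different numbers correlated at -0.367 to 0.348, and not every array correlated best with its own number. Between groups the replicate 3 arrays correlated with each other at 0.298 to 0.33, and with arrays of other numbers at -0.367 to -0.0624. The main model left the number out, and whether arrays of 1 number were handled together was not tested.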
